A study of Mus musculus with 3 samples.

Results

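The 10 members of the matrix metalloproteinase (MMP) family studied here were followed across the cell types of mouse dorsal skin: Mmp2, Mmp3, Mmp8, Mmp9, Mmp10, Mmp11, Mmp12, Mmp13, Mmp14 and Mmp19. They were chosen by name, and all 10 were among the 32285 genes of the count matrices. The study profiled full-thickness skin by droplet single-cell RNA sequencing in 3 libraries, 1 per group, from C57BL/6J wild type mice that were 8 weeks old at the start. CON mice were not irradiated. UV mice were exposed on alternate days over 12 weeks to mixed UVA (0.60 mW/cm2, 315 to 400 nm) and UVB (3.5 mW/cm2, 290 to 315 nm). Rux mice had the same irradiation and, right after each exposure, an ointment with 1.5% ruxolitinib, an inhibitor of the kinases JAK1 and JAK2. Irradiated skin was taken 24 h after the last exposure. By the study's description, CON and UV skin was given the vehicle without the drug, which the labels do not state. The number of mice in each library is not given in the sources used here.

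MMPs are zinc-dependent endopeptidases that cut proteins of the extracellular matrix. Most are secreted as inactive zymogens and activated when their propeptide is cleaved, and the tissue inhibitors of metalloproteinases (TIMPs) block the active enzymes. Mmp8 and Mmp13 are collagenases that open the fibrillar collagen helix, Mmp2 and Mmp9 are gelatinases that digest denatured and basement-membrane collagen, and Mmp3 and Mmp10 are stromelysins of broad specificity that also activate other pro-MMPs. Mmp11 is cleaved inside the cell by furin, Mmp12 is the macrophage elastase, Mmp14 is anchored in the cell membrane and activates pro-Mmp2, and Mmp19 is a secreted enzyme found in many tissues. In skin, their induction by ultraviolet light is a textbook part of photoageing.

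After filtering and doublet removal, 10777 CON, 10231 UV and 9299 Rux cells were kept, with medians of 7549, 7669 and 9438 unique molecular identifiers (UMIs) per cell. The labels call the mice female, but the Y-linked gene Ddx3y stood at 110 to 121 CPM (UMI counts scaled to a common total) in the 3 libraries and Xist at 0.0922 to 0.119 CPM, so every library went against that label and no comparison can be made without them. CON and UV shared 50 cell barcodes, CON and Rux 28, and UV and Rux 40. Clusters were built without the Mmp and Timp genes and named from marker lists: fibroblast-like (FB), epithelial-like (EPI), myeloid-like (MYE), neutrophil-like (NEU) and lymphocyte-like (LYM) cells are used here. The defining markers were present in these classes (Col1a1 at 4186 to 7597 CPM in FB-like, Lyz2 at 5342 to 6316 CPM in MYE-like and S100a8 at 22361 to 30488 CPM in NEU-like cells). FB-like cells numbered 3424 in CON, 5065 in UV and 4986 in Rux, EPI-like cells 3459, 1885 and 1586, MYE-like cells 277, 240 and 449, NEU-like cells 50, 21 and 221, and LYM-like cells 253, 241 and 361. Clusters left without a name held 14.9% of CON, 12.2% of UV and 7.96% of Rux cells.

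Levels are UMIs of a gene summed over a class in a library, as CPM of all UMIs of that class and library. The 3′ libraries count 1 tag per molecule whatever the transcript length, so CPM values carry no length term. With 1 library per group no test across samples could be made and differences between libraries have no replicate check. Ranges in parentheses are exact 95% intervals for counting error alone, and they are too narrow where a few cells carry most UMIs, because UMIs of 1 cell are not independent.

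Of the 10 members, 5 lie within 296 kb of chromosome 9 (GRCm38), in the order Mmp13 (chr9:7272514-7283331), Mmp12 (chr9:7344381-7369499), Mmp3 (chr9:7445822-7455975), Mmp10 (chr9:7502352-7510240) and Mmp8 (chr9:7558456-7568485), all on the plus strand. Mmp2 (chr8:92827291-92853420), Mmp14 (chr14:54431612-54445364), Mmp9 (chr2:164940780-164955850) and Mmp19 (chr10:128790910-128800824) are on the plus strand and Mmp11 (chr10:75923222-75936496) on the minus strand. Mmp1b overlaps Mmp12 on the other strand, Chchd10 overlaps Mmp11, and Gm47093 and Tmem198b overlap Mmp19. RefSeq promoter windows of GRCm38.p6, 250 bases before to 50 after a gene start, were matched for 7 of the 10 members, in 8 windows. The AP-1 motif TGANTCA, which is its own reverse complement, occurred in 4 of these 8 windows and in 7.81% of 32851 windows of all genes. All 4 belong to the chromosome 9 group, as did every window except those of Mmp11 and Mmp14. No window was matched for Mmp2, Mmp9 and Mmp19, so the group cannot be compared with the other members. The 4 are shown because Fos and Jun, the AP-1 subunits, are the classical regulators of these genes. Mmp12 had windows at more than 1 start. Its match lies at the second start, and the window of its first start, nearest the annotated gene start, had none. The STAT motif TTCNNNGAA occurred in 0 of the 8 windows and in 8.30% of all windows, and the TATA motif TATAAA, searched on both strands and free to overlap the others, in 5 of 8 and 13.6%. The 130 bases read 5′ to 3′ on the plus strand, with the AP-1 match in capitals.
Mmp13, chr9:7272384-7272513: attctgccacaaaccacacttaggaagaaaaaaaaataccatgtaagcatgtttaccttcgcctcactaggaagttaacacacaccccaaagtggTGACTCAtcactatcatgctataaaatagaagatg
Mmp12, second start, chr9:7347244-7347373: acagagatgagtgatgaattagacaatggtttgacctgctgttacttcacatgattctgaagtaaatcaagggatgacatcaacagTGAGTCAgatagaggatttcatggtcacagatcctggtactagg
Mmp3, chr9:7445692-7445821: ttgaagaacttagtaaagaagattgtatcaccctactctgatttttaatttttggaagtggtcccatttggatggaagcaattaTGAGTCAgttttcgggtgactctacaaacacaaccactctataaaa
Mmp10, chr9:7502212-7502341: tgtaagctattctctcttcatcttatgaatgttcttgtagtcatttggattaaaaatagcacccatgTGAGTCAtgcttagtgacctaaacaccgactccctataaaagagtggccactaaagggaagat
Mmp13 carries TGACTCA and the other 3 carry TGAGTCA. A match is a description of the letters and not a measured binding site.

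The members fell to different cells. FB-like cells held most UMIs of Mmp2, Mmp14, Mmp3, Mmp11 and Mmp19 in each library, and MYE-like cells held most of Mmp12. The highest levels of Mmp9 and of Mmp8 were in NEU-like cells, where Mmp8 rested on 3 UMIs in UV. By share of UMIs, however, MYE-like cells led for Mmp8, with 38.3% in CON, 70.3% in UV and 47.6% in Rux. They also led for Mmp9 in CON (41.4%) and UV (43.4%), and EPI-like cells led for it in Rux (42.7%). Mmp13 had a different leading class in each library. Mmp10 was nearly absent, with 8, 33 and 24 UMIs in all retained cells of CON, UV and Rux. The neighbours on chromosome 9 therefore did not share a leading class.

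**Figure D1:**
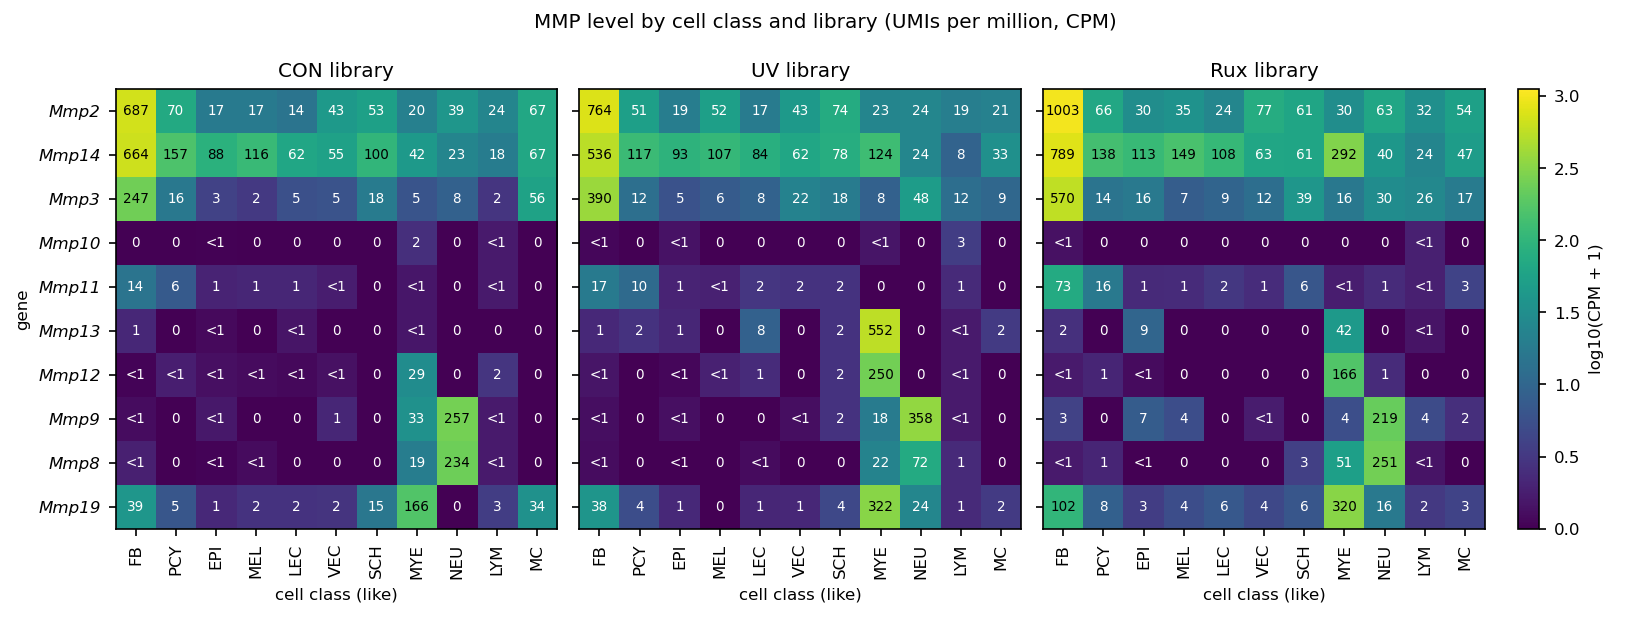
Level of the 10 members (vertical axis) in 11 cell classes (horizontal axis), with 1 panel each for the CON, UV and Rux libraries; colour is log10(CPM + 1) and the number in each box is the CPM. PCY are pericyte-like, MEL melanocyte-like, LEC and VEC lymphatic and vascular endothelial-like, SCH Schwann-like and MC mast cell-like cells, and muscle, erythroid and unnamed clusters are left out. Mmp2, Mmp14 and Mmp3 are highest in FB-like cells and Mmp12 in MYE-like cells in each library, and Mmp9 and Mmp8 in NEU-like cells.

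Mmp2 was counted mostly in fibroblasts. FB-like cells held 84.4% of its UMIs in CON, 91.1% in UV and 94.9% in Rux. Its level there was 687 CPM (676 to 697) in CON, 764 CPM (756 to 773) in UV and 1003 CPM (995 to 1012) in Rux. In FB-like cells thinned to 2000 UMIs, 62.9% of CON, 69.2% of UV and 74.2% of Rux cells had an Mmp2 UMI, against 4.53%, 2.61% and 6.65% of LYM-like cells, which should lack it. Without thinning these shares were 85.2%, 89.1% and 94.4% in FB-like and 10.7%, 10.8% and 18.8% in LYM-like cells, at median depths of 6148, 7414 and 9990 UMIs and of 5424, 5417 and 5607 UMIs. Thinning left out 148, 234 and 130 FB-like and 10, 11 and 15 LYM-like cells. Mmp2 in EPI-like cells (16.8, 18.8 and 30.2 CPM) was below the LYM-like level (23.6, 19.4 and 32.5 CPM) and was not told apart from background by level. EPI-like cells were deeper, at medians of 17210, 20999 and 20600 UMIs, and background was not compared per cell. The log2 ratio in FB-like cells was 0.15 (0.13 to 0.18) for UV over CON and 0.39 (0.37 to 0.41) for Rux over UV.

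Mmp14, which activates pro-Mmp2 at the cell surface, was spread more widely. FB-like cells held 57.0% of its UMIs in CON, 71.4% in UV and 84.8% in Rux, and EPI-like cells 25.1%, 16.1% and 8.90%. In FB-like cells it stood at 664 CPM (654 to 675) in CON, 536 (529 to 543) in UV and 789 (782 to 797) in Rux. UV was the lowest of the 3 libraries, at a log2 ratio of -0.31 (-0.34 to -0.28) to CON, and Rux was the highest, at 0.56 (0.54 to 0.58) to UV. EPI-like cells had 87.9, 92.9 and 113 CPM. Of EPI-like cells thinned to 2000 UMIs, 14.1%, 15.1% and 19.7% carried Mmp14, against 2.47%, 2.17% and 4.91% of LYM-like cells, so the epithelial signal stood above background. The unthinned shares were 61.9%, 66.3% and 72.6% of EPI-like cells (median depths 17210, 20999 and 20600 UMIs) and 10.3%, 4.56% and 13.0% of LYM-like cells. Among EPI-like clusters, cluster 36, led by Fhod3, Slc1a3 and Kcnb2, had a high level in each library, at 237, 255 and 249 CPM in 6, 42 and 142 cells.

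Mmp3, stromelysin 1, was also a fibroblast gene, and it was the member with the largest difference between libraries among the 3 most abundant. FB-like cells held 85.1%, 90.2% and 93.6% of its UMIs. Its level in them was 247 CPM (241 to 253) in CON, 390 (383 to 396) in UV and 570 (564 to 577) in Rux. In thinned cells the share with a UMI was 20.9%, 29.8% and 33.3%, against 0.823%, 2.17% and 4.05% of LYM-like cells, and unthinned it was 34.1%, 47.9% and 54.6% against 1.19%, 5.81% and 13.0%. The order CON, UV, Rux thus held for the level and for the share of cells. The log2 ratio was 0.66 (0.61 to 0.70) for UV over CON, 0.55 (0.52 to 0.58) for Rux over UV and 1.21 (1.17 to 1.25) for Rux over CON. Mmp3 in EPI-like cells stood at 3.03, 4.90 and 16.0 CPM, against 1.92 (0.395 to 5.60), 11.7 and 25.9 CPM in LYM-like cells. By level it was not told apart from background, except in 1 Rux cell described with Mmp9.

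Mmp11, the furin-cleaved stromelysin 3, was scarce in CON and UV and higher in Rux. FB-like cells held 66.9%, 83.8% and 95.2% of its UMIs. The level in them was 14.0 CPM (12.5 to 15.6) in CON, 16.8 (15.6 to 18.1) in UV and 72.5 (70.3 to 74.8) in Rux. CON and UV lay close together and Rux was apart from both, with a log2 ratio of 2.11 (1.99 to 2.23) to UV and 2.37 (2.21 to 2.54) to CON. In thinned FB-like cells 2.35%, 2.86% and 9.66% carried it, against 0%, 0% and 0.289% of LYM-like cells. A share of 0 in thinned LYM-like cells allows up to 1.23% in CON and 1.30% in UV. The unthinned shares were 8.18%, 8.86% and 29.2% against 0.395%, 0.830% and 0.554%.

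Mmp19 was shared between fibroblasts and myeloid cells. FB-like cells held 57.5%, 57.5% and 78.4% of its UMIs and MYE-like cells 19.6%, 25.3% and 17.9%, although the level was higher in MYE-like cells, at 166 CPM (148 to 185), 322 (298 to 347) and 320 (302 to 337). In FB-like cells it was 39.4 CPM (36.9 to 42), 37.7 (35.8 to 39.7) and 101.7 (99.0 to 104). Which library stood apart was not the same in the 2 cell types, a difference that was not tested. In FB-like cells Rux was above UV at a log2 ratio of 1.43 (1.35 to 1.51) while UV and CON were 0.06 apart, whereas in MYE-like cells UV was above CON at 0.95 (0.76 to 1.15) and Rux and UV were 0.01 apart. Within the MYE-like subclusters, described after Mmp14, the Rux over UV ratio was -0.49 (-0.73 to -0.24) in 0 and -0.38 (-0.62 to -0.13) in 1. It was -1.86 (-3.23 to -0.84) in 2, -0.93 (-1.22 to -0.63) in 4 and 0.28 (-0.21 to 0.80) in 3. The others had too few UMIs. The part of subcluster cell numbers in the class value was not tested. LYM-like cells had 1.30 to 2.56 CPM.

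**Figure D2:**
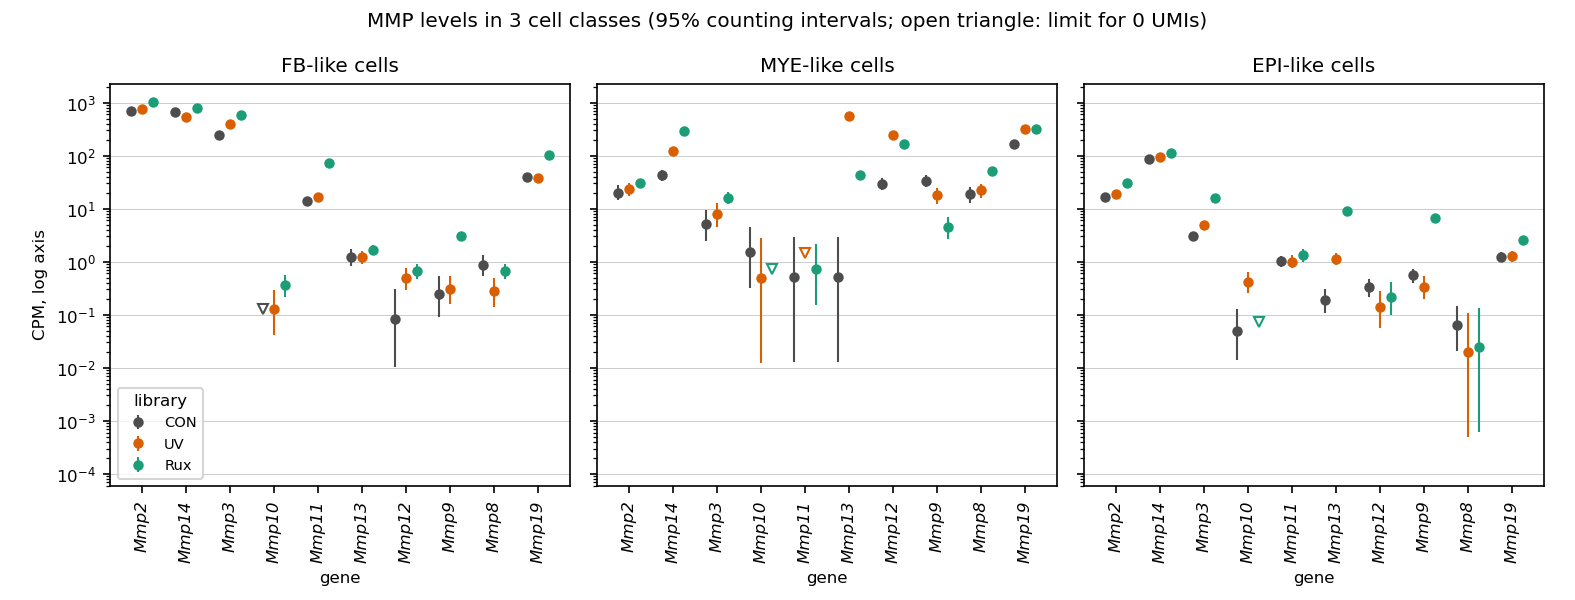
Level of each member in CPM (log axis) in the CON, UV and Rux libraries within FB-like, MYE-like and EPI-like cells; bars are exact 95% intervals for counting error, and an open triangle marks the limit where 0 UMIs were counted. In FB-like cells Mmp11 and Mmp19 stand apart in Rux, and in MYE-like cells Mmp13 is at 0.515 CPM in CON, 552 in UV and 42.4 in Rux.

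Past 2-fold, with at least 20 UMIs in the 2 libraries together and 0.5 added to each sum, 1 member was higher and 1 lower in FB-like cells for UV over CON, of 8 members with enough UMIs, against 7.62% and 6.39% of 16831 genes. They were Mmp12 (2 UMIs in CON, 19 in UV) and Mmp8 (21 and 11), both at under 1 CPM. In both libraries Mmp12 was below its LYM-like level, itself on few UMIs, and was read as background. For Rux over UV, 5 of 10 members were higher (Mmp10, Mmp11, Mmp9, Mmp8 and Mmp19) and 0 lower, against 2.11% and 7.31% of 17547 genes. The Mmp9 call rested on few cells, as 1 Rux cell held 113 of its UMIs. Without FB-like subcluster 9, described below, and the top remaining cell of each library, the Mmp9 log2 ratio was 0.20. Both Mmp8 calls had the opposite sign in the 1 FB-like subcluster with enough Mmp8 UMIs and at least 50 cells in both libraries. Its log2 ratio there was 0.80 for UV over CON and -0.72 for Rux over UV. For Rux over CON, 6 of 10 were higher (Mmp3, Mmp10, Mmp11, Mmp12, Mmp9 and Mmp19) and 0 lower, against 5.31% and 9.84% of 17015 genes. The median log2 ratio of the members was 0.08, 0.88 and 1.29 in these comparisons, against -0.11, -0.03 and -0.13 over all genes, and 1.29 was the same with Mmp10, at 0 UMIs in CON, at its bound. The comparisons share libraries. Members such as Mmp10 and Mmp12 reached 20 UMIs mostly through the library in which they were higher, so these counts are descriptions. The medians over all genes also give the shift of the CPM scale: the UV over CON ratio of Mmp19 in FB-like cells (-0.06) lies above that median of -0.11, and so has no direction of its own.

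FB-like cells were clustered again to see where the fibroblast members lay. Subcluster 9, led by Saa3, Hp, Lcn2 and Timp1, had 10 CON, 36 UV and 902 Rux cells and held 15384 of the 31837 Mmp3 UMIs of Rux FB-like cells, at 1186 CPM (1167 to 1205). Without it, Mmp3 stood at 248, 387 and 384 CPM, the log2 ratio of Rux over UV was -0.01 (-0.04 to 0.02), and that of Rux over CON was 0.63 (0.59 to 0.68), below 2-fold. Mmp11 and Mmp19 did not depend on it: without subcluster 9 their Rux over UV ratios were 2.14 (2.02 to 2.27) and 1.23 (1.14 to 1.32). Among the 11 subclusters with at least 50 cells in both libraries, Mmp3 was still higher in Rux than in UV in 8. Because the subcluster was nearly all from 1 library, a cell type and a feature of that library cannot be told apart.

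Other subclusters differed in their MMPs within each library. Subcluster 10, led by Grem1 and Igfbp2, had the highest Mmp14 of those described here in CON and UV, at 1564, 1268 and 1062 CPM, together with Mmp2 at 1425, 1374 and 1499 CPM, and its Mmp3 ran the other way from the class, at 647 CPM in CON, 530 in UV and 260 in Rux. It also held 19 of the 21 Mmp8 UMIs of CON FB-like cells, and it had 358 CON, 65 UV and 269 Rux cells. The part of these cell numbers in the Mmp8 ratios of the class was not tested. Subcluster 7, led by Acta2 and Ednrb, had little Mmp3 (25.7, 75.0 and 116 CPM) and the highest Mmp11 of those described in Rux, at 24.1, 56.2 and 176 CPM. Subcluster 5, led by Gdf10, had the most Mmp3, at 695, 900 and 1350 CPM in 143, 618 and 327 cells. Subcluster 12, led by Coch, had Mmp3 at 3.87, 6.85 and 29.6 CPM beside Mmp14 at 929, 612 and 634 CPM.

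Over subclusters with at least 50 cells in both libraries, Mmp11 was higher in UV than in CON in 9 of 9 and Mmp3 and Mmp2 in 7 of 9 each, while Mmp14 and Mmp19 were higher in 5 of 9. For Rux over UV, Mmp2 was higher in 11 of 11 subclusters, Mmp19 in 10 of 11, Mmp14 in 9 of 11, Mmp3 in 8 of 11 and Mmp11 in 9 of the 10 with enough UMIs. For Rux over CON, Mmp11 was higher in 8 of 8, with log2 ratios of 1.08 to 4.21, and Mmp2 in 8 of 8. Subclusters of 1 library are not replicates.

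**Figure D3:**
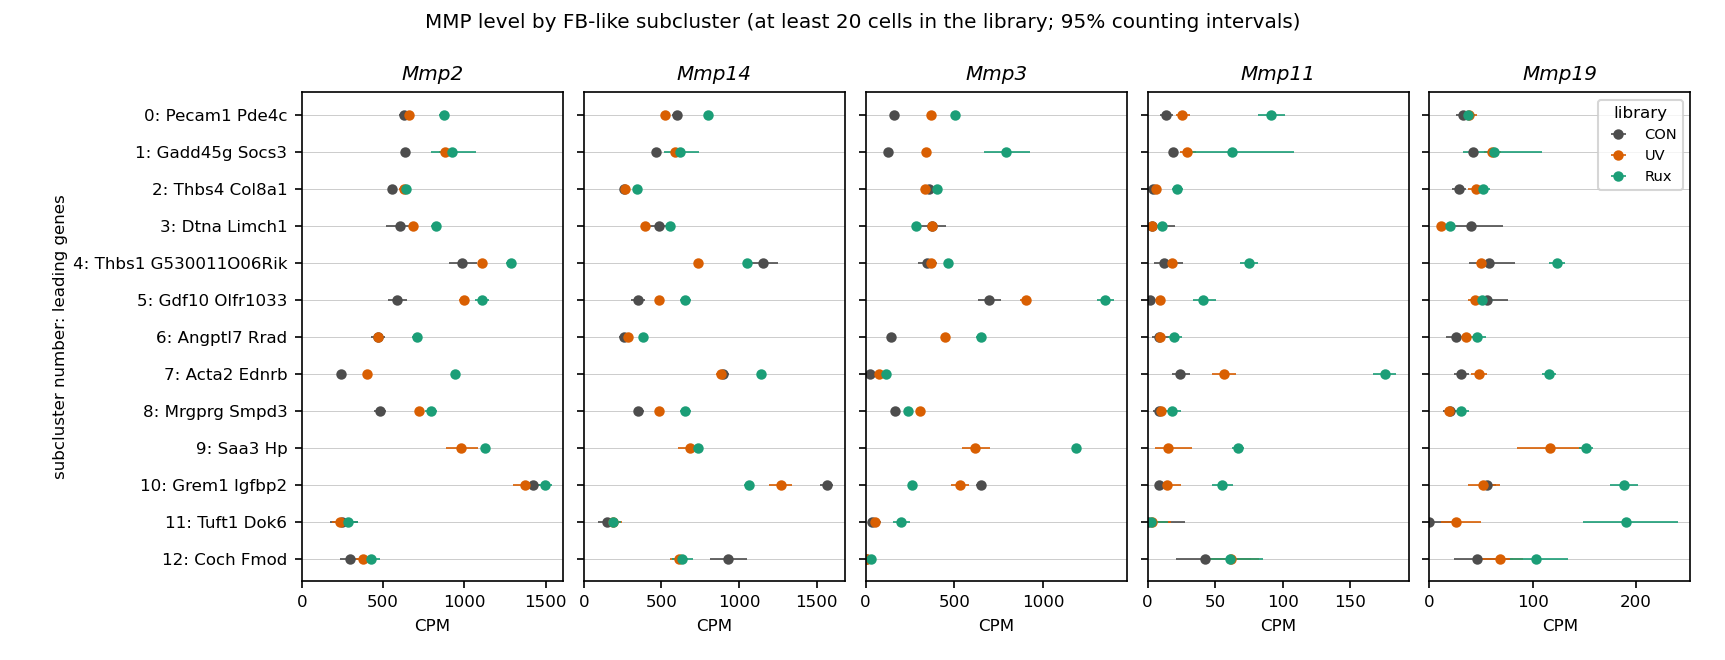
Level of the 5 fibroblast members in CPM (horizontal axis) by subcluster of FB-like cells, given by number and leading genes, in the CON, UV and Rux libraries with at least 20 cells there; bars are exact 95% intervals for counting error. In Rux, Mmp3 is at 1350 CPM in subcluster 5 and 1186 in subcluster 9, and Mmp11 at 176 CPM in subcluster 7.

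Mmp13, the main collagenase of rodents, was the member with the widest range in myeloid cells. MYE-like cells had 1 UMI in CON, 1122 in UV and 172 in Rux, in 1, 16 and 24 cells, or 0.515 CPM (0.013 to 2.87), 552 (520 to 585) and 42.4 (36.3 to 49.2). UV was the highest library and CON nearly empty. The log2 ratio was 9.48 (7.58 to 15.37) for UV over CON, on 1 CON UMI, and -3.70 (-3.94 to -3.47) for Rux over UV. Few cells carried the gene: 8 cells held 98.0% of its UMIs in UV and 78.5% in Rux, and the top UV cell alone held 306. Thinned to 2000 UMIs, 0.391%, 5.29% and 2.85% of MYE-like cells carried it, against 0%, 0.435% and 0% of LYM-like cells. Unthinned, the shares were 0.361%, 6.67% and 5.35% against 0%, 0.415% and 0.277%, at MYE-like median depths of 6576, 7478 and 8921 UMIs, and 0 of 253 CON LYM-like cells allows a share of up to 1.19%. The share of carrying cells in UV and Rux was therefore closer than the level.

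**Figure D4:**
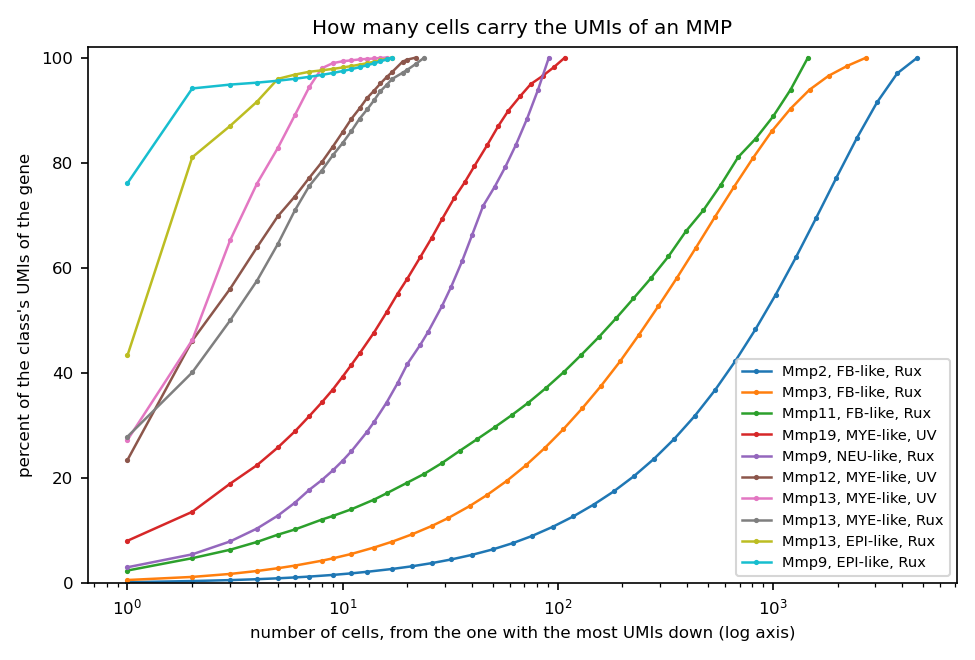
Cumulative share of a member's UMIs against the number of cells, ranked from the cell with the most UMIs (log axis), for 10 choices of member, class and library. Mmp2 and Mmp3 of Rux FB-like cells are spread over 4705 and 2724 cells, while 8 MYE-like cells hold 98.0% of the UV Mmp13 UMIs and 1 EPI-like cell 76.1% of the Rux Mmp9 UMIs.

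Mmp12, the macrophage elastase, followed a similar order. MYE-like cells held 60.6%, 93.2% and 93.2% of its UMIs, with 57, 507 and 673 UMIs in 11, 22 and 41 cells. The level was 29.4 CPM (22.2 to 38.1) in CON, 250 (228 to 272) in UV and 166 (154 to 179) in Rux. Both irradiated libraries lay above CON, at log2 ratios of 3.08 (2.69 to 3.51) and 2.49 (2.11 to 2.91), of which the value for Rux turned to -0.79 without myeloid subcluster 4, described after Mmp14, and Rux was below UV at -0.59 (-0.76 to -0.42). LYM-like cells had 3, 1 and 0 UMIs, and 0 of 361 Rux cells allows a share of up to 0.831%. Of the MYE-like cells with Mmp13, 62.5% in UV and 50% in Rux also had Mmp12, against 5.36% and 6.82% of the other MYE-like cells.

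Mmp14 in MYE-like cells stood at 42.3 CPM (33.6 to 52.5) in CON, 124 (110 to 141) in UV and 292 (276 to 309) in Rux. The 3 libraries did not overlap in these intervals, and the share of thinned cells with a UMI was 6.25%, 13.2% and 35.1%, against 2.47%, 2.17% and 4.91% of LYM-like cells. The unthinned shares were 17.0%, 27.9% and 59.0%. Log2 ratios were 1.55 (1.19 to 1.94) for UV over CON and 1.23 (1.03 to 1.43) for Rux over UV. Of the 253 UV UMIs, 154 were in 18 cells of subcluster 4, which had 1 cell and 0 UMIs in CON. Without that subcluster the level was 42.6, 52.8 and 177 CPM, and the ratios were 0.31 (-0.13 to 0.75) for UV over CON, below 2-fold, and 1.74 (1.44 to 2.07) for Rux over UV. The UV over CON ratio was -0.17 (-1.09 to 0.73) within subcluster 0, 0.60 (-0.08 to 1.34) within subcluster 1 and -0.04 (-1.36 to 1.27) within subcluster 3, the others having under 20 UMIs or at most 1 CON cell, and over all MYE-like cells without doublet removal it was 0.92.

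Most of the myeloid Mmp13 and Mmp12 of UV and Rux lay in 1 subcluster. Subcluster 4, led by Spp1, Arg1, Cav1, Pdpn, Inhba and Acp5, had 1 CON, 18 UV and 66 Rux cells, and its markers did not settle which myeloid type it was. Mmp13 and Mmp12, which the clustering did not use, were also among its leading genes. It held 1100 of the 1122 UV and 143 of the 172 Rux UMIs of Mmp13, at 7041 and 236 CPM, in 9 of 18 and 17 of 66 cells. Mmp12 there stood at 2016 CPM in UV and 1012 in Rux, in 12 and 27 cells, and Mmp19 at 928 and 488 CPM. Mmp14, by contrast, differed little, at 986 CPM in 18 of 18 UV cells and 946 CPM in 65 of 66 Rux cells. Within the subcluster UV was thus above Rux for Mmp13, Mmp12 and Mmp19 while Mmp14 was almost level. Outside it, Mmp12 also appeared in subcluster 3, led by Cd207, at 65.0, 289 and 9.16 CPM, where 2 cells held the 134 UV UMIs. The mean log2 marker score of subcluster 3 was 3.92 for dendritic cells and 2.94 for Langerhans cells. Subcluster 1, led by Lyz1, Mucl1 and Lpl, had Mmp12 at 72.2, 130 and 52.7 CPM, with 25, 58 and 47 UMIs in 5, 8 and 7 cells. Without subcluster 4, an alternative chosen after seeing the data, Mmp13 stood at 0.519, 11.7 and 8.41 CPM and its Rux over UV ratio was -0.49 (-1.33 to 0.39), below 2-fold. Mmp12 then stood at 29.6, 102 and 17.1 CPM, so that Rux was below CON, at -0.79 (-1.34 to -0.24), in place of above it.

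**Figure D5:**
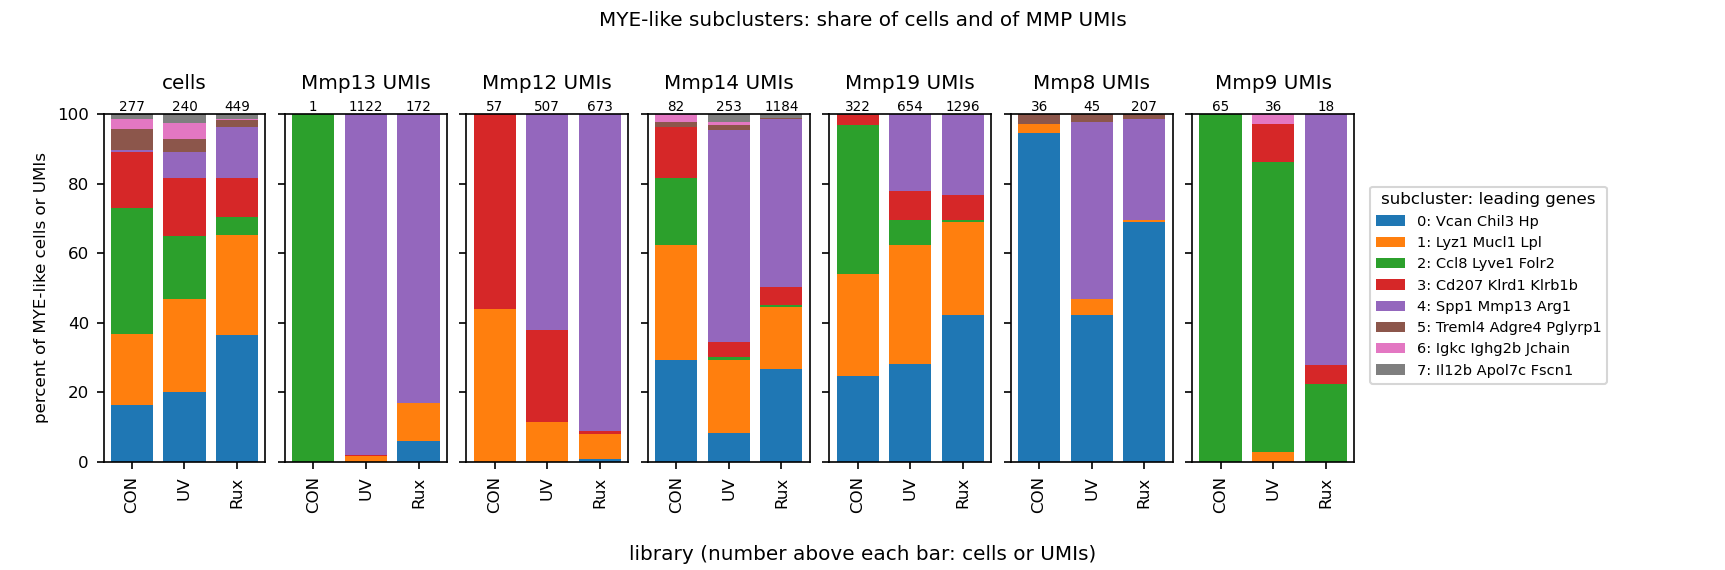
Share (percent) of MYE-like cells and of the UMIs of 6 members in each subcluster of MYE-like cells, in the CON, UV and Rux libraries; the number above each bar is the cells or UMIs it stands for. Subcluster 4 holds 1100 of 1122 UV and 143 of 172 Rux Mmp13 UMIs, and subcluster 2 holds 65 of 65 CON and 30 of 36 UV Mmp9 UMIs.

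In MYE-like cells, 3 of 8 members with enough UMIs were more than 2-fold higher for UV over CON (Mmp14, Mmp13 and Mmp12) and 0 lower, against 2.57% and 5.88% of 9658 genes. Comparing Rux with UV, 2 were higher (Mmp14 and Mmp8) and 2 lower (Mmp13 and Mmp9), against 3.51% and 6.15% of 10317 genes. For Rux over CON, 5 were higher (Mmp14, Mmp3, Mmp13, Mmp12 and Mmp8) and 1 lower (Mmp9), against 4.2% and 11.4% of 10476 genes. The members' medians were 0.77, 0.18 and 1.50, against -0.14, 0.00 and -0.16 over all genes. Mmp3 in these cells (5.15, 7.87 and 15.8 CPM) was at or below its LYM-like level in UV and Rux and was read as background. The call on Mmp13 used 1 CON UMI, and without subcluster 4 the calls on Mmp14 for UV over CON, Mmp13 for Rux over UV and Mmp12 for Rux over CON fell away.

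Mmp9, the gelatinase stored in neutrophil granules, was highest in NEU-like cells, at 257 CPM (177 to 361) in CON, 358 (200 to 590) in UV and 219 (187 to 256) in Rux. These rest on 33, 15 and 163 UMIs in 22 of 50, 9 of 21 and 91 of 221 cells, and the intervals of the 3 libraries overlapped. The share of NEU-like cells with a UMI was 44.0%, 42.9% and 41.2%, at median depths of 2454, 2042 and 3291 UMIs, against 0.395%, 0.415% and 1.66% of LYM-like cells. Thinned, it was 43.2%, 50% and 32.2%, with 6, 9 and 19 cells left out, against 0%, 0% and 0.578%. A difference in NEU-like Mmp9 between the libraries was not detectable at this depth, while the number of these cells was higher in Rux.

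The myeloid Mmp9 had another order. MYE-like cells had 33.5 CPM (25.9 to 42.7) in CON, 17.7 (12.4 to 24.5) in UV and 4.44 (2.63 to 7.01) in Rux. The order was CON, UV, Rux from high to low, with log2 ratios of -0.91 (-1.55 to -0.31) for UV over CON and -1.98 (-2.90 to -1.14) for Rux over UV. Subcluster 2, led by Ccl8, Lyve1, Folr2 and Cd209f, held 65 of 65 CON, 30 of 36 UV and 4 of 18 Rux UMIs. It had 100, 44 and 23 cells and 140, 142 and 29.7 CPM, so that CON and UV were level inside it. In Rux, 13 of the 18 UMIs were in subcluster 4.

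In Rux, single cells outside these classes carried much of the Mmp9. One EPI-like cell of cluster 12 (Krt77, Krt10 and Krt1) held 207 Mmp9 and 160 Mmp13 UMIs, 1 of cluster 35 held 49 Mmp9, 139 Mmp13 and 141 Mmp3 UMIs, and 1 FB-like cell of subcluster 9 held 113 Mmp9, 116 Mmp14, 70 Mmp3 and 21 Mmp13 UMIs. They had 3.48, 2.92 and 4.04 times the median UMIs of the library. The EPI-like cells had 344 and 258 keratin UMIs with 0 of the macrophage markers counted, and the FB-like cell had 161 collagen UMIs and 1 of those markers. Their doublet scores lay at the 76.2, 57.2 and 60.0 percentiles of the library. Whether such cells are doublets was not tested further. Because of them EPI-like cells held 42.7% of the Rux Mmp9 UMIs and 58.2% of the 634 Rux Mmp13 UMIs, compared with 85.7% of the 1309 UV Mmp13 UMIs in MYE-like cells. In CON, 60.4% of only 48 Mmp13 UMIs were in FB-like cells, all 29 in 2 cells of subcluster 7.

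EPI-like cells had 2 members higher (Mmp10 and Mmp13) and 1 lower (Mmp12) for UV over CON, of 9 with enough UMIs, against 8.07% and 3.92% of 18361 genes. In Rux over UV, 4 of 8 were higher (Mmp3, Mmp13, Mmp9 and Mmp19) and 1 lower (Mmp10), against 2.84% and 5.06% of 17655 genes. For Rux over CON, the same 4 of 8 were higher and 0 lower, against 7.35% and 6.78% of 18005 genes. The medians were 0.08, 0.85 and 0.94, against -0.01, -0.05 and -0.06 over all genes. Mmp13 had 15, 57 and 369 UMIs in 3, 20 and 17 of these cells. In Rux, 2 cells held 81.0% of the EPI-like Mmp13 UMIs and 94.1% of the EPI-like Mmp9 UMIs. Mmp3 in EPI-like cells was not told apart from background by level, except in the cluster 35 cell described with Mmp9. Mmp12 had 26, 7 and 9 UMIs and Mmp19 98, 64 and 104, at 0.137 to 2.53 CPM. Mmp19 and Mmp12 were below their LYM-like levels in CON and UV. In Rux, Mmp19 was above its LYM-like level, itself on few UMIs. In CON, 1 cell held 10 of the 26 Mmp12 UMIs and another held 8. The Mmp19 ratio of Rux over UV was below 2-fold, at 0.68 to 0.97, under 6 of the alternative settings, and the Mmp12 ratio of UV over CON, at -0.78 to -0.42, under 4.

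Mmp10, stromelysin 2, was counted only in small numbers. EPI-like cells had 4 UMIs in CON, 21 in UV (in 5 cells) and 0 in Rux, and FB-like cells 0, 5 and 20. Against a floor of 3 counts per library, EPI-like Mmp10 was at least 5.64-fold lower in Rux than in UV, and FB-like Mmp10 at least 2.86-fold higher in Rux than in CON. The counts came from at most 8 cells in either class and library. A share of EPI-like Rux cells of up to 0.189% is allowed by 0 of 1586 cells, and a share of FB-like CON cells of up to 0.0876% by 0 of 3424.

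Mmp8, the neutrophil collagenase, was highest in NEU-like cells of CON and Rux. They had 30, 3 and 187 UMIs in 14, 3 and 72 cells, or 234 CPM (158 to 334), 71.6 (14.8 to 209) and 251 (217 to 290). CON and Rux overlapped, and the UV value came from 21 cells. The share of cells with a UMI was 28.0%, 14.3% and 32.6%, and 29.5%, 25.0% and 28.2% when thinned. LYM-like cells had 0.395%, 0.415% and 0.277% unthinned and 0.412%, 0% and 0.289% thinned. MYE-like cells had 18.6 (13.0 to 25.7), 22.1 (16.2 to 29.6) and 51.0 CPM (44.3 to 58.5), and Rux was above UV at a log2 ratio of 1.19 (0.73 to 1.70). These lay in subcluster 0, led by Vcan, Chil3 and Hp (89.9, 50.8 and 91.0 CPM), and in subcluster 4 (147 in UV and 98.9 in Rux). In UV, 1 cell held 17 of the 23 Mmp8 UMIs of subcluster 4. Subcluster 0 had 45 CON, 48 UV and 163 Rux cells. The mean log2 marker score of subcluster 0 for monocytes was 3.75, with 6 of the monocyte markers detected. Hp is also abundant in neutrophils, and NEU-like cells numbered 50, 21 and 221 across the same libraries. Their part in the myeloid value was not tested.

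Among the inhibitors of MMPs, Timp1 was the abundant one that differed between libraries in fibroblasts. Its FB-like level was 117, 150 and 291 CPM in CON, UV and Rux, and Rux exceeded CON by 1.32 on the log2 scale. It is a leading gene of subcluster 9. Timp2, at 1588, 1723 and 1557 CPM, and Timp3, at 383, 447 and 394 CPM, stayed within 1.5-fold. Of 8 listed inhibitors, 6, 7 and 6 had enough UMIs in UV over CON, Rux over UV and Rux over CON, with 0, 0 and 1 higher (Timp1) and 0, 1 and 1 lower (Timp4, at most 25 UMIs a library). Over all genes of FB-like cells, 7.62%, 2.11% and 5.31% were higher and 6.39%, 7.31% and 9.84% lower. In MYE-like cells 3 had enough, of which Timp1 was higher for UV over CON, at a log2 ratio of 1.04, against 2.57% of all genes.

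Of 13 other MMPs, 12 were in the matrices. In FB-like cells 2 of 7 were higher for UV over CON, the leukocyte enzyme Mmp25 (13, 214 and 146 UMIs) and Mmp28 (12, 49 and 76 UMIs), against 7.62% of all genes. Mmp25 was lower for Rux over UV, at a log2 ratio of -1.05, as 1 of 8, against 7.31% of all genes. For Rux over CON, Mmp25 (2.22) and Mmp28 (1.39) were higher, as 2 of 8, against 5.31% of all genes, and 0 were lower, against 9.84%. Mmp23 was the most abundant of them, at 99.96, 132 and 101 CPM. In MYE-like cells 1 to 2 had enough UMIs and 0 were past 2-fold in the 3 comparisons. Over all genes of these cells, 2.57%, 3.51% and 4.2% were higher and 5.88%, 6.15% and 11.4% lower.

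Among 12 activators of pro-MMPs, 10 were measured in FB-like cells. For UV over CON 3 were higher, Plat (tissue plasminogen activator, 111, 245 and 159 CPM), Cma1 and Tpsb2, and Klk8 was lower, against 7.62% and 6.39% of all genes. For Rux over UV 0 were past 2-fold, against 2.11% higher and 7.31% lower, and for Rux over CON 2 were higher and 1 lower, against 5.31% and 9.84%. Cma1 and Tpsb2 are mast cell proteases, at most 4.88 CPM here, and mast cell-like cells numbered 64, 171 and 211. Their part in those values was not tested. In MYE-like cells 0 of 5, 1 of 9 and 2 of 8 activators were higher in the 3 comparisons, against 2.57%, 3.51% and 4.2% of all genes, and 0 lower, against 5.88%, 6.15% and 11.4%. These were Cma1 for Rux over UV, and Cma1 and Tpsb2 for Rux over CON. Cma1 had 3, 5 and 25 UMIs there and Tpsb2 2, 7 and 25. The part of mast cell-like cells in these values was not tested either.

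Among the regulators of MMP transcription, Fos and Junb were the AP-1 subunit genes past 2-fold in fibroblasts for UV over CON. Of 17 measured for UV over CON, 0 were higher and 3 lower: Fos (3740, 1733 and 1888 CPM, log2 ratio -1.11), Junb (3801, 1430 and 1386 CPM, -1.41) and the cytokine gene Tnf (3.59, 1.42 and 2.24 CPM, -1.33), against 7.62% and 6.39% of all genes. FB-like subcluster 1, led by Gadd45g, Socs3, Zfp36 and Egr1, held 1209 CON (35.3%), 387 UV (7.64%) and 23 Rux (0.461%) of the FB-like cells, and its part in the Fos and Junb values was not tested. The median over the list was -0.14, against -0.11 over all genes. For Rux over UV 1 of 19, Il1b, was higher, at 1.65 CPM in UV and 7.50 in Rux, against 2.11% higher of all genes. For Rux over CON 1 of 18 was higher and 1 lower, against 5.31% and 9.84%. Il1b stood at 3096, 2237 and 5818 CPM and Tnf at 382, 492 and 645 CPM in MYE-like cells. The part of such cells in the FB-like values of Il1b and Tnf was not tested. In MYE-like cells 0 of 18 were past 2-fold for UV over CON, against 2.57% higher and 5.88% lower of all genes. For Rux over UV Il1a (1.75) and Il1b (1.38) were higher and Osmr was lower, of 18, against 3.51% and 6.15% of all genes. For Rux over CON 1 of 18 was higher and 1 lower, against 4.2% and 11.4%.

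The substrates were measured in the same cells. Of 10 matrix genes in FB-like cells, Acan, the cartilage proteoglycan, was lower for UV over CON (37.9 and 9.68 CPM), Lamb3 for Rux over UV, and both for Rux over CON, and 0 were higher. Of all genes in these cells, 6.39%, 7.31% and 9.84% were lower and 7.62%, 2.11% and 5.31% higher. Col1a1, the main chain of type I collagen, stood at 7597 CPM in CON, 4235 in UV and 4186 in Rux, a log2 ratio of -0.84 for UV over CON and -0.02 for Rux over UV. Col4a1 (353, 335 and 575 CPM) and elastin, Eln (168, 165 and 306 CPM), stood apart in Rux. In MYE-like cells 0, 0 and 2 substrates were higher and 2, 0 and 1 lower, of 7, 8 and 9 measured, against 2.57%, 3.51% and 4.2% of all genes higher and 5.88%, 6.15% and 11.4% lower.

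The genes most like each member were found over 41 class-by-library sums, which share libraries and depth, by Pearson's r of log2(CPM + 1) among 18046 genes. Mmp2 was nearest to Lum (0.91), Dpt (0.90) and Ccdc80 (0.88), and Mmp3 to Pi16 (0.87), Lum (0.87) and Clec3b (0.84). Mmp14 was nearest to Ctsl (0.76), Il11ra1 (0.75) and Scara3 (0.74), Mmp11 to Chrd (0.81), St6galnac5 (0.79) and Rtl1 (0.79), and Mmp19 to Fap (0.78), Rassf2 (0.75) and Olfr432 (0.74). Among the myeloid members, Mmp12 was nearest to Il12b (0.96), Apol7c (0.95) and Msr1 (0.95), and Mmp13 to Arg1 (0.87), Il12b (0.82) and Cldn7 (0.81). These values describe sums over classes and not the same cells. Il12b and Apol7c led MYE-like subcluster 7, whose 4 CON, 6 UV and 7 Rux cells had 0 UMIs of Mmp12 and of Mmp13. Mmp9 was nearest to Trem1, Trim30b and Ugt1a6a (0.94 each) and Mmp8 to Clec5a, Mcemp1 and Sirpb1b (0.98 each). Mmp10 had too few UMIs to be ranked.

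Unnamed clusters held a further part of the stromal signal. Cluster 4, with few UMIs per cell and led by Gdf10 and Mgp, had Mmp3 at 355, 570 and 846 CPM, in the same order of libraries as the FB-like cells. With it counted among the FB-like cells, every member ratio past 2-fold there stayed past 2-fold.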

How the data were processed

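Full-thickness dorsal skin was dissociated and profiled with 3′ droplet single-cell RNA sequencing in 3 libraries (CON, UV and Rux), grouped by their treatment labels. The deposited matrices hold counts, that is whole UMIs per gene and cell, which the authors made with Cell Ranger on mm10 and did not normalize. The submitters' notes name Cell Ranger 6.1.2 and Seurat 5.3.0, whereas the matrix header names 7.0.0. The matrices held 13170, 12411 and 11287 cells with 165337289, 133972374 and 131570327 UMIs.

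Cells were kept from 200 detected genes upwards and with no more than 10% of UMIs from mitochondrial genes. The highest Scrublet scores (scanpy 1.11.5), at 0.8% per 1000 cells, were removed as doublets (1269, 1128 and 923 cells). Clustering in Seurat 5.3.0 (R 4.3.3) at resolution 1.5 used 2000 variable genes less the Mmp and Timp genes among them, which left 1989, and gave 44 clusters. A cluster was named "X-like" where the mean log2 marker score of one lineage was at least 2, at least 3 markers were detected in 10% of cells and no other lineage passed 0.75 of that score. Clusters of few UMIs with no own marker among the 10 leading genes, or with more markers of another class there, were left unnamed. These limits were set after seeing the scores and left 6 clusters unnamed. FB-like and MYE-like cells were clustered again in the same way at resolution 0.5.

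UMIs were summed per class and library in Python 3.11.15 (numpy 2.4.6, scipy 1.17.1). Intervals at 95% are exact Poisson for sums, conditional binomial for ratios and Clopper-Pearson for shares. Log2 ratios add 0.5 to each sum, and a member was called past 2-fold with at least 20 UMIs in the 2 libraries together. Shares of cells were taken after thinning to 2000 UMIs. With 1 library per group no test was run, and the ratio code was tested on simulated data. The members and gene lists were chosen with earlier results of these data known. The text names the members, the genes of the lists, the 3 genes most like each member, up to 5 leading genes of a cluster and lineage markers, and a few leading genes beyond the 5 of a myeloid subcluster and the single cells with many Mmp9 UMIs were named after their values were seen. Alternatives covered the cell filters (500 genes and 5%, or 20% mitochondrial), doublets, variable genes, resolution 0.8, scaling, cell weights, minimum counts, fold and thinning. Others were added after seeing the data: leaving out the cell with the most UMIs, FB-like subcluster 9, the MYE-like subcluster led by immunoglobulin genes or MYE-like subcluster 4, and counting the unnamed cluster 4 as FB-like. Gene positions are from GENCODE M21 (GRCm38) and promoters from RefSeq (GRCm38.p6).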

Additional observations from a re-analysis of the deposited data

Results flagged for a closer look

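Several members had opposite directions in different cell classes under the same comparison of libraries. With 1 library per group none of these differences was tested, and each rests on few cells.

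Mmp9 differed most often. Its Rux over UV log2 ratio was 3.27 in FB-like and -1.98 in MYE-like cells, a difference of 5.243, and with 4.27 in EPI-like cells the difference from MYE-like cells was 6.251. For Rux over CON the same differences were 6.379 (FB-like 3.49, MYE-like -2.89) and 6.456 (EPI-like 3.57). In Rux, 1 FB-like cell held 113 of the 170 Mmp9 UMIs of its class and 1 EPI-like cell 207 of 272. The 2 EPI-like cells with the most held 94.1% of those 272 UMIs. The EPI-like ratios without both cells were not computed, so these differences rest largely on them. Without the cell with the most Mmp9 UMIs in each library, the FB-like Rux over UV ratio was 1.82. Without FB-like subcluster 9 it was 1.05 (0.06 to 2.20), on 28 Rux and 12 UV UMIs. With the top cells left out as well, it was 0.20.

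Mmp13 had a Rux over UV log2 ratio of 3.00 in EPI-like and -3.70 in MYE-like cells, a difference of 6.696. In Rux, 2 cells held 81.0% of the EPI-like Mmp13 UMIs, and the EPI-like ratio without both was not computed. Without myeloid subcluster 4 the MYE-like ratio was -0.49 (-1.33 to 0.39), below 2-fold. Mmp12 for UV over CON was at 2.25 in FB-like, 3.08 in MYE-like and -1.18 in EPI-like cells. FB-like and MYE-like cells thus differed from EPI-like cells by 3.425 and 4.255, the EPI-like value on 26 CON and 7 UV UMIs. In both libraries the FB-like and EPI-like levels of Mmp12 were below its LYM-like level, itself on few UMIs, and the FB-like level was read as background. In CON, 1 EPI-like cell of cluster 9 held 10 of the 26 UMIs and 1 of cluster 12 held 8. The cluster 12 cell also had 36 UMIs of the macrophage markers. Without the cell with the most Mmp12 UMIs in each library, the EPI-like ratio was -0.70, below 2-fold. For Mmp10 the Rux over UV ratio was 1.39 in FB-like cells and -5.11 in EPI-like cells, a difference of 6.507, where the EPI-like value compares 0 with 21 UMIs, depends on the 0.5 added and is no bound.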

How the results depend on the processing

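Across FB-like, MYE-like, EPI-like and NEU-like cells, 41 member ratios were past 2-fold, and 13 settings recomputed them. Of these settings 9 touched every class, and under them all 41 kept their direction and between 34 (equal weight per cell) and 41 stayed past 2-fold. The other 4 settings changed 1 class only. Under 3 of them each ratio of that class kept its direction, and without myeloid subcluster 4 the Mmp12 ratio of Rux over CON turned from 2.49 to -0.79, with Mmp14 for UV over CON at 0.31 and Mmp13 for Rux over UV at -0.49. EPI-like Mmp19 for Rux over UV was below 2-fold under 6 settings (0.68 to 0.97) and EPI-like Mmp12 for UV over CON under 4 (-0.78 to -0.42). The number of members past 2-fold for UV over CON in FB-like cells (2) was 1 with equal weight per cell and 0 with a minimum of 100 UMIs. For Rux over UV in FB-like cells (5) it was 3 under both settings. In MYE-like cells for UV over CON (3) it was 5 under the strict cell filter and 6 past 1.5-fold. With a higher minimum fewer members could be counted, and a lower fold admits more; the cause of the other shifts was not tested. Without doublet removal, MYE-like Mmp14 for UV over CON was at 0.92, and under the strict filter for Rux over UV at 0.96, both below 2-fold. The leading class of a member held in 29 of 29 pairs of member and library under 4 settings and in 28 without doublet removal, where CON Mmp13 passed from FB-like to unnamed cells.

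No paired analysis was possible because each group has 1 library. Depth limits Mmp10, and Mmp8 and Mmp9 in the 21 UV NEU-like cells.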
